A study of Mus musculus with 4 samples.

Results

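The genes described here are those of the mouse major histocompatibility complex (MHC) and of peptide loading. They were chosen by name: every symbol of the count table that starts with H2- and a capital letter, without those ending in -ps, plus B2m, Cd74, Tap1, Tap2, Tapbp, Tapbpl, Erap1, Ciita, Cd1d1 and Mr1. The rule finds 51 of 48425 genes. They comprise 2 classical class I heavy chains, 26 nonclassical class I genes, 11 class II chains, 6 genes for the class I subunit and loading, 2 class II partners (Cd74 and Ciita), 2 class I-like genes, the class I pseudogene H2-K2, and H2-Ke6, which carries an H2 name and encodes no MHC chain. GENCODE annotates 7 of the 51 as pseudogenes or polymorphic pseudogenes.

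RNA came from mesothelial cells, the single cell layer lining the peritoneal cavity, of 4 C57BL/6 mice 10 weeks old, labelled WT (wild type). There was 1 group, with no treatment and 1 library per animal. Cells were freed by trypsin and sorted as CD45-, podoplanin-positive and Gpm6a-positive, so a gate against leukocytes preceded the measurement, and ribosomal RNA was depleted from the total RNA. Animals are numbered as in the titles, and the sources used here give no sex and no batch.

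Class I molecules pair a heavy chain with beta-2 microglobulin and show peptides made in the cell to CD8 T cells. Peptides reach them through the TAP transporter, and tapasin holds the empty molecule beside it. Class II molecules are alpha and beta chain pairs that bind peptides in endosomes and show them to CD4 T cells. They travel with the invariant chain Cd74, exchange peptides with the help of H2-DM, and depend on the transactivator Ciita. Class II is typical of professional antigen-presenting cells and is inducible by interferon gamma in many other cells.

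The libraries held 4569578, 4371817, 4554370 and 4090224 estimated counts in animals 1 to 4. Levels are given as counts-per-million (CPM), scaled by each column's sum. A value of 0 allows up to 3 counts, which is 0.657 to 0.734 CPM in 1 library and 0.171 CPM over the 4. Such limits reflect only counting, because no molecular identifiers are named for these libraries and several reads may copy one molecule. Of 10 mesothelial markers, 9 were above 1 CPM and Calb2 was at 0, and their summed level was 12034 to 13719 CPM. The spread of a value is between separate animals. In bulk RNA, fewer cells of a type and less RNA per cell cannot be told apart.

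A gene was called present when its level lay above 1 CPM in a one-sided quasi-likelihood F test. Its p-values were Benjamini-Hochberg adjusted over all genes, with a threshold of 0.05. The statistic was computed from edgeR's model fits and deviances, not by edgeR's own test function, and is named the edgeR test below. Among the 51 members 30 were called, or 58.8%, beside 24.7% of all genes in the table. Another 14 members were at 0 in all libraries and 7 had counts without passing the test. All 6 genes of the class I subunit and loading passed, as did both classical heavy chains, both class I-like genes, and both Cd74 and Ciita. Of the nonclassical genes 11 of 26 passed, and of the class II chains 5 of 11. All members together took 17649 ± 3458 CPM (SD, n = 4), or 1.77% of the counts.

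**Figure D1:**
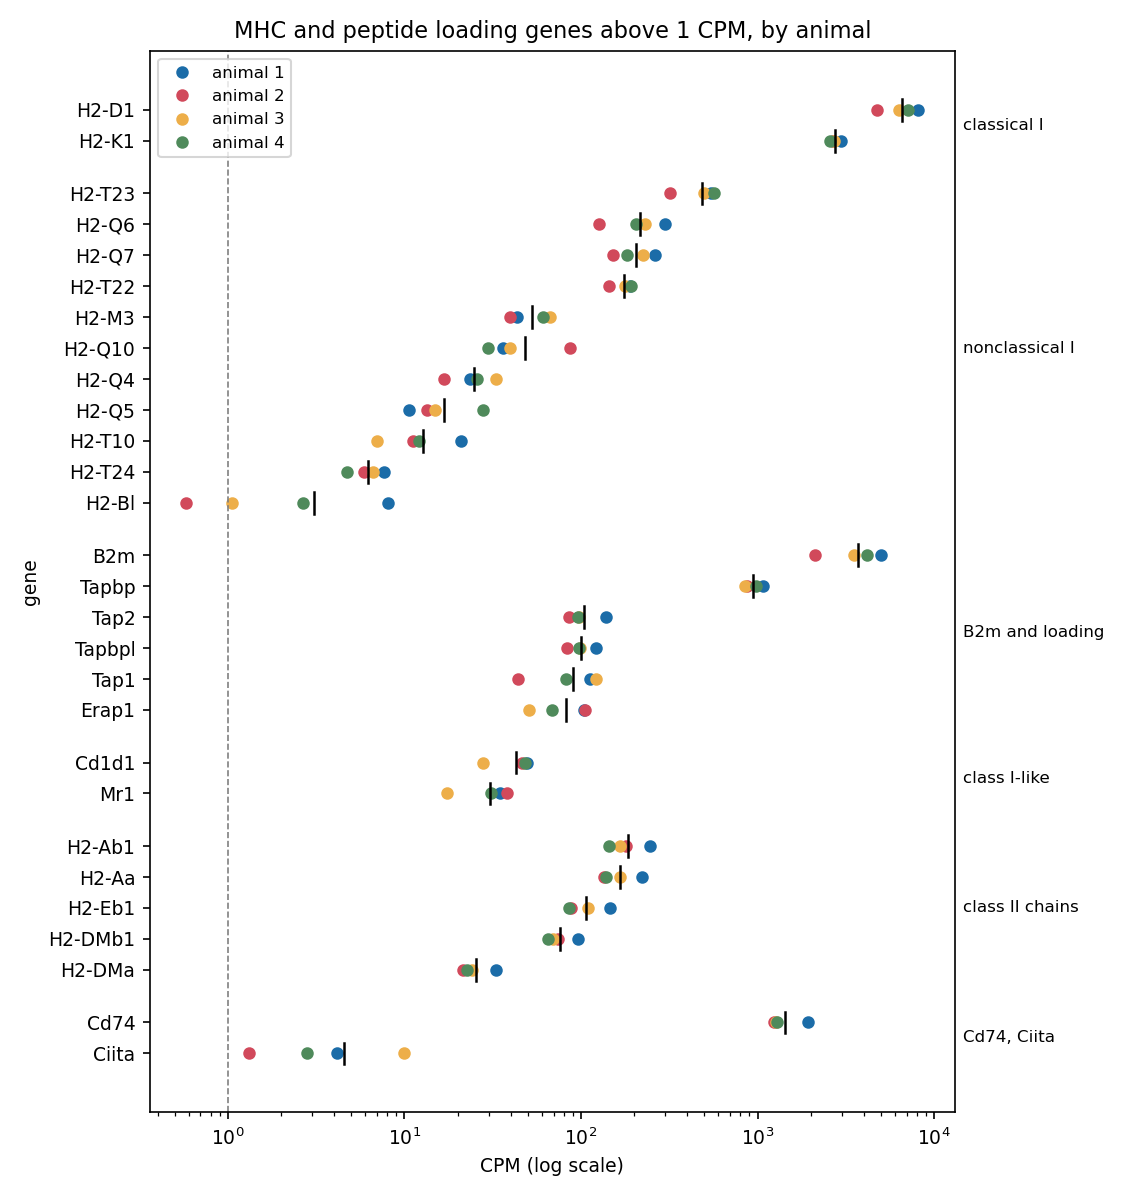
Level of each MHC and peptide loading gene above 1 CPM, by group; the x axis is CPM on a log scale, points are the 4 animals, short bars the means and the dashed line 1 CPM. H2-K2 and H2-Ke6 are not drawn. H2-D1, B2m, H2-K1 and Cd74 lie at 1233 CPM or more in every animal, and H2-Bl is the single gene with an animal below the line.

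Class I paralogs share much of their sequence, and that bears on every level below. Exon 2 encodes the first peptide-binding domain of the heavy chain and exon 4 the membrane-proximal domain that contacts beta-2 microglobulin and CD8. The first 90 bases of exon 2 (GENCODE M21, build GRCm38) are shown because they hold letters that tell the paralogs apart. Capitals mark a base that differs from H2-D1 at the same place. The stretches lie at chr17:35263379-35263468 (plus strand) for H2-D1, chr17:33999914-34000003 (minus) for H2-K1, chr17:35425108-35425197 (plus) for H2-Q6, chr17:35439452-35439541 (plus) for H2-Q7 and chr17:36032333-36032422 (minus) for H2-T23.
H2-D1: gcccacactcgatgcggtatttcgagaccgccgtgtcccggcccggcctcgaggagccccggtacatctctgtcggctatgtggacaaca
H2-K1: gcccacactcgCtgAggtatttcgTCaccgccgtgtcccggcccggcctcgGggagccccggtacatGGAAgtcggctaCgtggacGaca
H2-Q6: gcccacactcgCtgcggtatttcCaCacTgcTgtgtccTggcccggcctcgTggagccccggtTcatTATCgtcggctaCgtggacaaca
H2-Q7: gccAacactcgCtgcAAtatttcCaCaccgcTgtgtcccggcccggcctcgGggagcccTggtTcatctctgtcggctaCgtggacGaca
H2-T23: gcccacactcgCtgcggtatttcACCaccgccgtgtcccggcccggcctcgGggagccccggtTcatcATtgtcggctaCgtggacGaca

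Over this stretch H2-K1 differs from H2-D1 at 11 bases, H2-Q6 at 13, H2-Q7 at 12 and H2-T23 at 10. The first 90 bases of exon 4 are much closer, and they show where reads cannot be assigned by their letters alone. They lie at chr17:35265784-35265873 for H2-D1, chr17:33997471-33997560 for H2-K1, chr17:35427864-35427953 for H2-Q6, chr17:35442267-35442356 for H2-Q7 and chr17:36031008-36031097 for H2-T23, on the same strands and with the same use of capitals.
H2-D1: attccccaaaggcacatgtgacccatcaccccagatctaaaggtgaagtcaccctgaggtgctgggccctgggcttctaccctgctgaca
H2-K1: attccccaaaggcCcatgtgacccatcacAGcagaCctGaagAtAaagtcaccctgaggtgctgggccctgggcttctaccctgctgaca
H2-Q6: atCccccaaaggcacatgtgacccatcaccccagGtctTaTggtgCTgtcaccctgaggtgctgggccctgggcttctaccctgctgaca
H2-Q7: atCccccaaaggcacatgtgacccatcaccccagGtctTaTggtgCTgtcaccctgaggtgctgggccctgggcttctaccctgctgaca
H2-T23: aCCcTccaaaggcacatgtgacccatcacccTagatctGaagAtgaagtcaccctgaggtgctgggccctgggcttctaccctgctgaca

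The last bases printed form one run without a capital in all 5 genes, and H2-Q6 and H2-Q7 carry the same letters throughout. Over whole exons, H2-K1 was identical to H2-D1 at 91.1% of bases in exon 2, 88.0% in exon 3 and 96.0% in exon 4. H2-T23 kept 83.3% and 69.2% in exons 2 and 3, with 96.4% in exon 4. H2-M3 was the most distant of the 6 genes compared with H2-D1, at 68.9%, 68.5% and 87.3%. H2-Q6 and H2-Q7 were identical to each other at 93.0%, 94.9% and 99.3%.

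Sharing was measured as the part of a gene's distinct 31-base words, over all its annotated transcripts, that occurs in no other gene. B2m had 100% of its own words, and H2-Ab1 99.7%, H2-Aa 99.1% and Cd74 98.6%. The called class I heavy chain genes had fewer, with 95.4% for H2-M3, 77.2% for H2-K1, 74.2% for H2-T23 and 73.1% for H2-D1. The lowest of them were H2-T10 at 35.8% and H2-T22 at 32.6%. Sharing was not limited to class I heavy chains, since Tapbp had 73.1% and the class II chain H2-DMb1 68.6%. H2-D1 and H2-K1 had 358 words in common, 13.8% of those of H2-D1. Both also share words with nonclassical genes. H2-D1 shares 8.18% with H2-Q1 and 8.14% with H2-Q7, and H2-K1 shares 9.5% with H2-Q10. H2-T10 and H2-T22 had 1662 in common, 47.6% and 47.2% of their words. No source used here says how reads were split among such genes, so single levels of the class I paralogs are uncertain and sums over them are less so. The division between the classical and nonclassical sums is open to the same splitting.

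**Figure D2:**
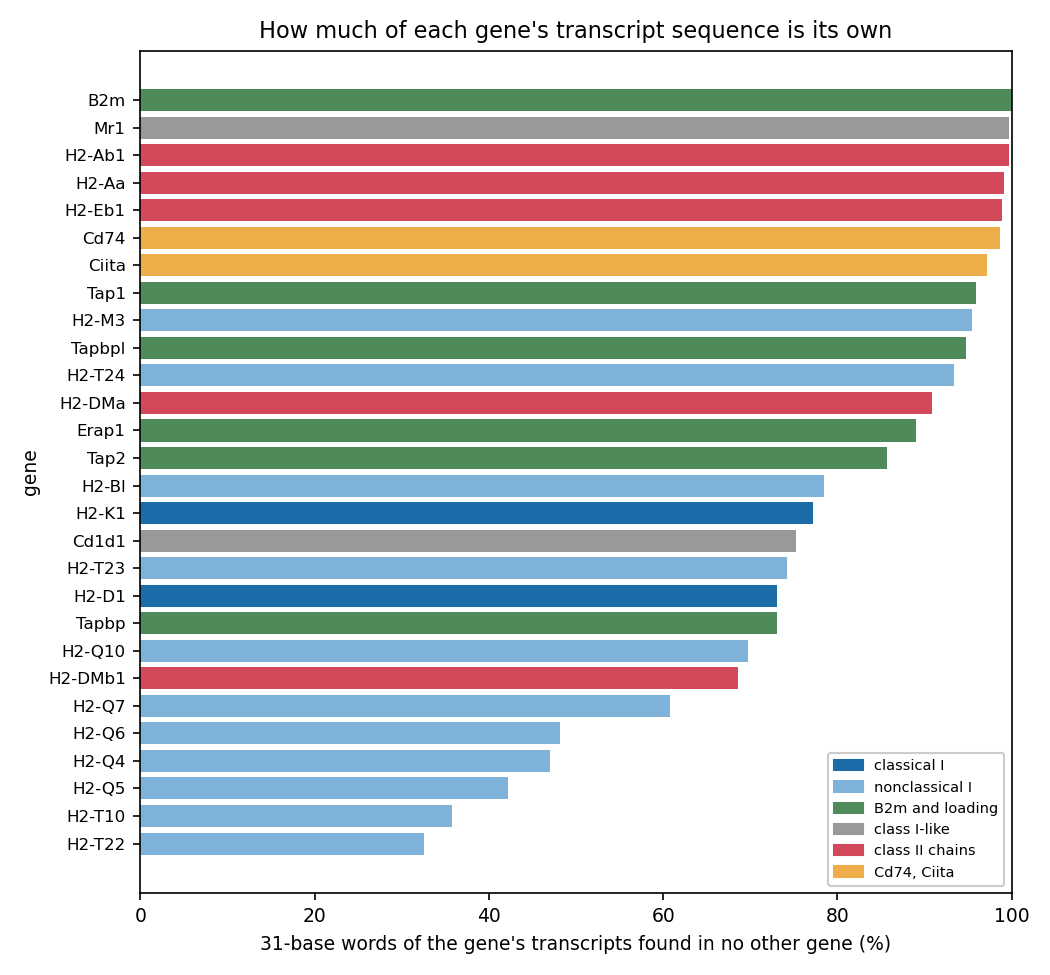
Percent of the 31-base words of each called gene that are in transcripts of no other gene (x axis), 1 bar per gene, coloured by group, with H2-K2 and H2-Ke6 not drawn. The class II chains H2-Ab1, H2-Aa and H2-Eb1 lie at 98.9% or more, while H2-DMb1 lies at 68.6%. The 5 shortest bars drawn are the nonclassical genes H2-Q6, H2-Q4, H2-Q5, H2-T10 and H2-T22.

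The classical heavy chains, which present peptides to CD8 T cells, were among the strongest members. H2-D1 (chr17:35262730-35267499, plus strand) measured 8110.5, 4730.5, 6316 and 7092 CPM in animals 1 to 4. Its mean of 6562 ± 1425 CPM (SD, n = 4) was rank 9 of all genes. H2-K1 (chr17:33996017-34000347, minus strand) measured 2952, 2680.0, 2726 and 2574 CPM, a mean of 2733 ± 159 CPM and rank 35. Animal 2 was lowest for H2-D1, while the 4 values of H2-K1 lay close together, with a coefficient of variation (SD over mean) of 5.83%.

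Per kilobase of the longest transcript, which corrects for the longer H2-D1 transcript, H2-D1 averaged 3122 and H2-K1 1688 CPM per kb. H2-D1 was higher than H2-K1 in 4 of 4 animals, by 0.86 ± 0.15 (SE) on the log2 scale per kilobase and by 1.24 ± 0.15 in CPM. The exact two-sided sign-flip permutation p was 0.13, the smallest that 4 animals allow, and 0.156 after Benjamini-Hochberg adjustment over the 10 pairs of members compared. No pair can therefore pass 0.05 in this design, and the pairs are described by size and direction.

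Among the nonclassical genes, 4 carried most of the signal. H2-T23, which encodes Qa-1, a ligand of NKG2 receptors, measured 547, 319, 496 and 568 CPM, a mean of 483 ± 113 (SD, n = 4). H2-Q6 measured 298, 127, 231 and 204 CPM, a mean of 215 ± 70.6. H2-Q7, which encodes a Qa-2 antigen, measured 262, 151, 225 and 181 CPM, a mean of 205 ± 48.9. Animal 2 was lowest for all 3, and animal 1 was highest for both Q genes.

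H2-T22, whose product is recognised by some gamma delta T cells, measured 190, 144, 178 and 192 CPM, a mean of 176 ± 22.04 (SD, n = 4). H2-T10, a close relative annotated as a polymorphic pseudogene, measured 20.9, 11.1, 7.03 and 12.1 CPM. Since 47.2% to 47.6% of their words are shared, the sum of both is firmer than either level, 189 ± 24.9 CPM. It does not cover all sharing. A930015D03Rik holds 27.7% of the words of H2-T22 and 12.2% of those of H2-T10. BC023719 holds 12.3% and 25.8%, and both genes are in the count table and outside the sum. H2-Q6 and H2-Q7 together gave 420 ± 119 CPM, a sum that leaves out their closest sharers. H2-Q6 shares 24.6% of its words with H2-Q4 and 18.4% with H2-Q7. H2-Q7 shares 22.4% with H2-Q10, 15.5% with H2-Q5 and 8.72% with H2-Q6.

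The other nonclassical genes were lower. H2-M3, which presents N-formylated peptides, measured 43.4, 39.8, 66.8 and 61.2 CPM, a mean of 52.8 ± 13.2 (SD, n = 4) with 95.4% of its words its own. H2-Q10, whose product is secreted and is best known from liver, measured 36.4, 87.1, 39.7 and 29.8 CPM. It was highest in animal 2, the animal with the lowest H2-D1, B2m and H2-T23. H2-Q4 measured 23.7, 16.8, 33.1 and 25.7 CPM. H2-Q5, a polymorphic pseudogene with 42.2% of its words its own, measured 10.7, 13.5, 14.98 and 27.9 CPM, highest in animal 4.

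Below a mean of 10 CPM, H2-T24 passed the test at 6.23 ± 1.24 CPM (SD, n = 4). H2-Bl passed with an adjusted p of 0.0072 in the edgeR test, and its values were 8.08, 0.583, 1.06 and 2.65 CPM. That call rests on animal 1: without it the adjusted p in the edgeR quasi-likelihood test was 0.893, and it was 0.328 with limma and voom weights. The 6 nonclassical genes that had counts and did not pass were H2-Q1, H2-Q2, H2-M2, H2-T3, H2-M10.1 and H2-M11, with 0.952 to 19.5 counts over the 4 libraries. The 9 at 0 were H2-M1, H2-M10.2 to H2-M10.6, H2-M5, H2-M9 and H2-Q3, and most of the M10 family is known from the vomeronasal organ. The pseudogene H2-K2 stood at 9.81 ± 3.06 CPM. H2-Ke6, a dehydrogenase gene with 23.9% of its words its own, measured 13.4, 9.45, 16.5 and 13.4 CPM.

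Summed, the classical chains gave 11062.5, 7410.5, 9042 and 9665.5 CPM, a mean of 9295 ± 1514 (SD, n = 4). The nonclassical genes gave 1452, 919, 1302 and 1312 CPM, a mean of 1246 ± 229. Animal 1 was highest and animal 2 lowest in both sums. The classical share of class I heavy chain counts stayed within 87.4% to 89.0% over the 4 animals. H2-D1 alone made up 61.8% ± 3.76 (SD, n = 4), and H2-T23, H2-Q6, H2-Q7 and H2-T22 made up 86.0% ± 3.72 of the nonclassical counts. Per kilobase, the classical sum was higher than the nonclassical in 4 of 4 animals, by 2.65 ± 0.05 (SE) on the log2 scale (exact sign-flip permutation p = 0.13).

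B2m (chr2:122147686-122153083, plus strand), the light chain common to class I and class I-like molecules, measured 4973, 2107, 3535 and 4181 CPM. Its mean was 3699 ± 1213 CPM (SD, n = 4), rank 21 of all genes. Animal 2 was lowest and animal 1 highest, 2.36 times apart. Per kilobase, B2m averaged 4301 ± 1411 CPM per kb, above H2-D1. The per-kilobase level of B2m was below the sum of the class I heavy chains in 4 of 4 animals, by 0.43 ± 0.15 (SE) on the log2 scale (exact sign-flip permutation p = 0.13).

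Of the loading genes, Tapbp, which encodes tapasin, was the highest, at 1076, 867, 845 and 974 CPM, a mean of 941 ± 106 (SD, n = 4). Tapbpl, the tapasin-related peptide editor, measured 122, 83.4, 99.1 and 97.2 CPM. Per kilobase, Tapbp exceeded Tapbpl in 4 of 4 animals, by 2.92 ± 0.07 (SE) on the log2 scale. The values of Tapbp lay within 1.27 times of each other, a narrow range beside that of B2m. Tapbp shares 22.1% of its words with Gm19412, so its level may hold reads of that gene.

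Tap1 and Tap2 encode the 2 chains of the peptide transporter. Tap1 measured 113, 43.9, 122 and 81.9 CPM, a mean of 90.2 ± 35.3 (SD, n = 4). Tap2 measured 139, 85.7, 97.3 and 96.8 CPM, a mean of 105 ± 23.5. Both were lowest in animal 2, and Tap1 varied more, 2.78 times between its lowest and highest animal. Per kilobase the chains differed by -0.07 ± 0.26 (SE) on the log2 scale, Tap1 minus Tap2, which is within the spread between animals (exact sign-flip permutation p = 0.625).

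Erap1, the aminopeptidase that trims peptides in the endoplasmic reticulum, measured 104, 106, 50.9 and 68.4 CPM, a mean of 82.3 ± 27.1 (SD, n = 4). Unlike the TAP chains it was highest in animal 2 and lowest in animal 3. The class I-like genes had their lowest value in animal 3 as well. Cd1d1, which presents lipids to NKT cells, measured 49.2, 46.6, 27.9 and 48.3 CPM. Mr1, which presents vitamin B metabolites to MAIT cells, measured 34.8, 38.0, 17.5 and 31.1 CPM.

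The class II pathway was detected in these CD45- sorted cells, at a lower level than class I. H2-Ab1, the beta chain of I-A, measured 247, 180, 166 and 145 CPM, a mean of 184 ± 44.0 (SD, n = 4; edgeR quasi-likelihood test, Benjamini-Hochberg adjusted p = 1.05e-28). The adjusted p of H2-Ab1 was 7.99e-14 in the edgeR test with a filter at 10 counts, and 9.27e-06 with limma and voom weights. H2-Aa, the alpha chain of I-A, measured 222, 135, 166 and 139 CPM, a mean of 165 ± 40.0. Animal 1 was highest for both chains, and the other 3 animals lay close together. Per kilobase the 2 chains averaged 152 (H2-Ab1) and 147 (H2-Aa) CPM per kb. Their difference per kilobase, H2-Aa minus H2-Ab1, was -0.05 ± 0.09 (SE) on the log2 scale, within the spread between animals (exact sign-flip permutation p = 0.750).

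H2-Eb1, the beta chain of I-E, measured 146, 87.3, 109 and 85.0 CPM, a mean of 107 ± 28.4 (SD, n = 4). Per kilobase H2-Ab1 exceeded H2-Eb1 in 4 of 4 animals, by 1.25 ± 0.09 (SE) on the log2 scale. The strain C57BL/6 is known to lack a working I-E alpha chain gene. That gene, listed as H2-Ea-ps and outside the rule, was at 0 in all 4 libraries, which allows up to 0.171 CPM.

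H2-DMb1, a chain of the peptide exchanger H2-DM, measured 96.2, 74.2, 69.7 and 65.0 CPM, a mean of 76.3 ± 13.8 (SD, n = 4). H2-DMa, its partner chain, measured 33.0, 21.6, 24.2 and 22.7 CPM, a mean of 25.4 ± 5.21. Per kilobase H2-DMa was below H2-DMb1 in 4 of 4 animals, by 2.06 ± 0.06 (SE) on the log2 scale. H2-DMb1 shares 31.4% of its words with H2-DMb2, so its level may hold reads of that copy. H2-DMb2 itself did not pass the test, at 1.70 CPM in animal 1 and 0 in the other 3.

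The remaining class II chains, H2-Eb2, H2-Oa, H2-Ob, H2-Pa and H2-Pb, were at 0 in all 4 libraries. H2-Oa and H2-Ob encode H2-DO, an inhibitor of H2-DM known chiefly from B cells. The 11 class II chains summed to 746, 498, 534 and 457 CPM, a mean of 559 ± 129 (SD, n = 4). Without animal 1 the mean of this sum was 496 CPM. H2-Aa, H2-Ab1 and H2-Eb1 made up 81.6% ± 0.953 of it. Class II took 5.04% ± 0.776 of all class I and class II chain counts, and class I exceeded class II per kilobase by 3.71 ± 0.12 (SE) on the log2 scale in 4 of 4 animals.

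Cd74, the invariant chain that blocks the class II groove during transport, measured 1926, 1233, 1269 and 1294 CPM, a mean of 1431 ± 331 (SD, n = 4) and rank 77 of all genes. Animal 1 stood apart, and the other 3 lay within a narrow range. Per kilobase Cd74 exceeded the sum of H2-Aa and H2-Ab1 in 4 of 4 animals, by 1.76 ± 0.06 (SE) on the log2 scale (exact sign-flip permutation p = 0.13). Ciita, the transactivator of class II genes, was far lower, at 4.17, 1.33, 9.94 and 2.82 CPM, a mean of 4.57 ± 3.77. It was above 1 CPM with an adjusted p of 3.66e-05 in the edgeR quasi-likelihood test and was highest in animal 3, not in animal 1. The adjusted p was 0.0243 in the edgeR test without animal 3, and 0.0428 with limma and voom weights.

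**Figure D3:**
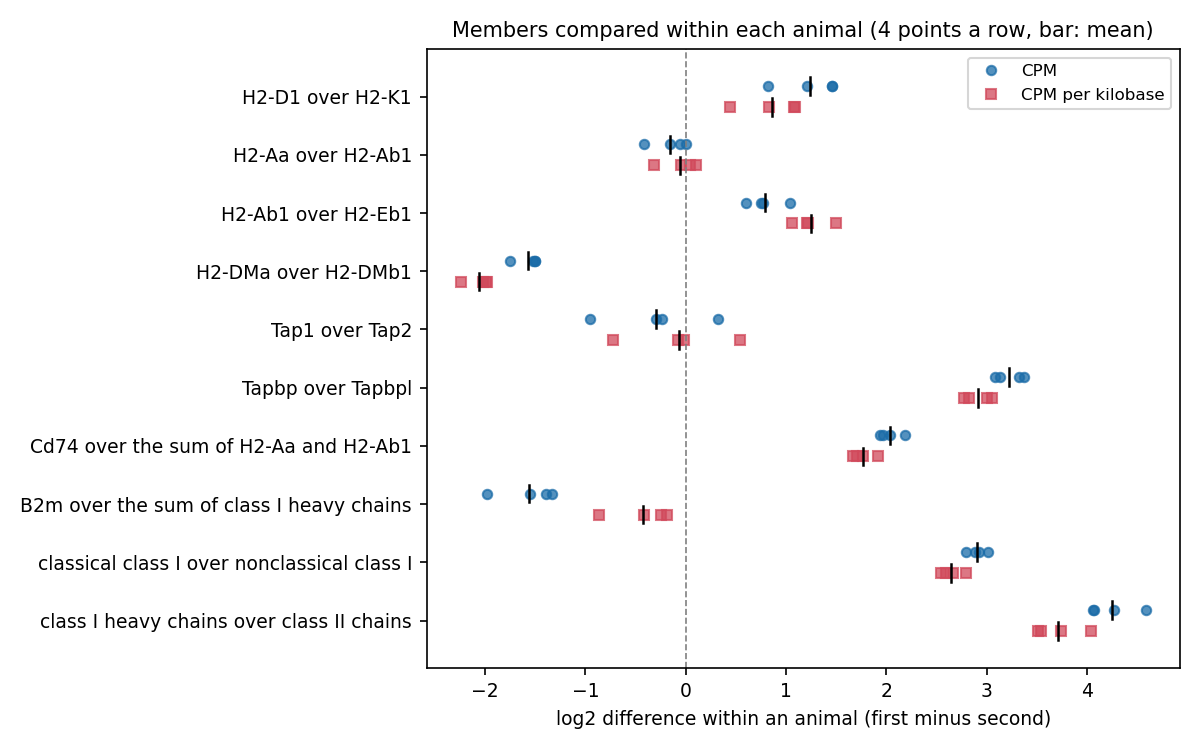
Log2 difference between members within an animal (x axis, first minus second) for the 10 pairs, in CPM and per kilobase of the longest transcript; points are the 4 animals and bars the means. The bars for H2-Aa over H2-Ab1 and Tap1 over Tap2 lie near 0 per kilobase, and 4 of 4 animals lie on one side of 0 in the other 8 pairs.

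Many members were lowest or highest in the same animal, although the full order of the 4 animals differed between genes. Each gene's log2(CPM + 0.5) was set against its own mean over the 4 animals. Over the 19 called genes of the class I heavy chains, B2m and loading, the median deviation was 0.30 in animal 1, -0.28 in animal 2, -0.002 in animal 3 and 0.02 in animal 4. Animal 2 was lowest for 12 of the 19 (63.2%), beside 25.4% of all 11943 called genes. Animal 1 was highest for 11 (57.9%), beside 20.2% of all called genes.

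Of the 7 called genes of class II, Cd74 and Ciita, 6 were highest in animal 1 (85.7%), with Ciita the exception, and the median deviation in animal 1 was 0.45. The lowest value was in animal 2 for 4 of the 7 and in animal 4 for 3, beside 25.4% and 25.9% of all called genes. With TMM or DESeq2 scaling, alternatives chosen after the data were seen, animal 2 was lowest for 12 of the 19 class I genes. Animal 1 was highest for 14 of them, beside 24.8% (TMM) and 24.7% (DESeq2) of all called genes. Of the 7 class II genes, 6 were again highest in animal 1. Their lowest value then lay in animal 2 for 4, in animal 3 for 2 and in animal 4 for 1. Genes of a pathway and paralogs that share reads are not independent, so these counts carry no test. The median coefficient of variation was 23.9% over the 26 called members with a mean of at least 10 CPM, beside 22.9% over the 8792 such genes of the table.

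**Figure D4:**
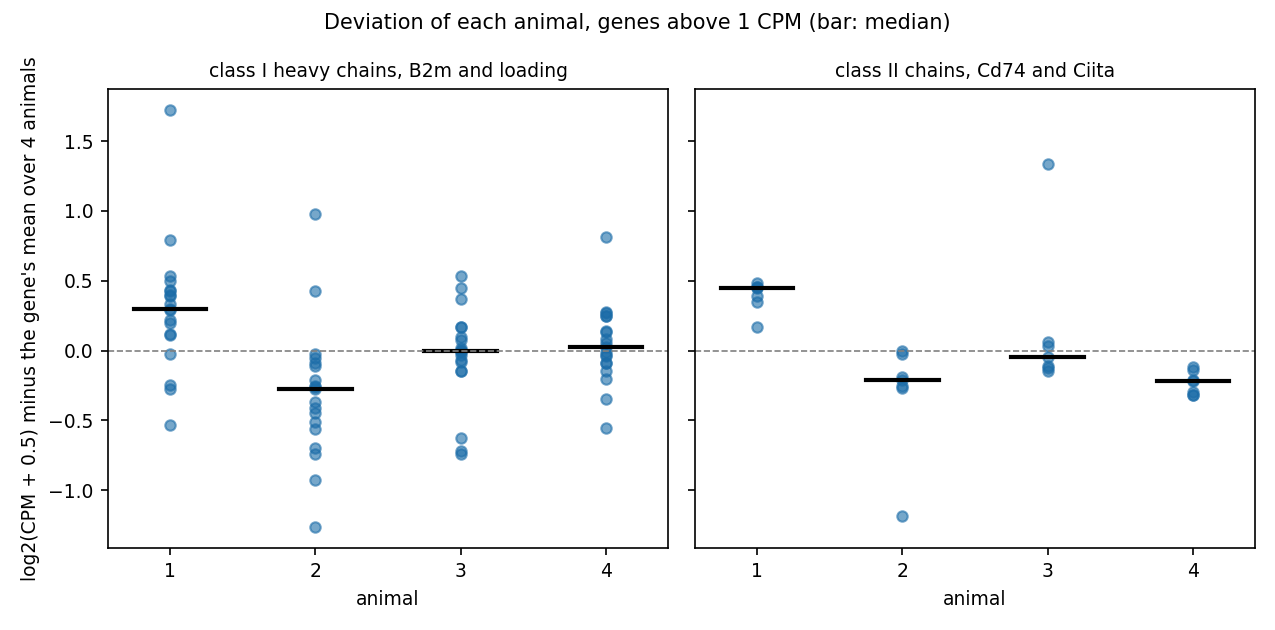
Deviation of each animal from the gene's mean over 4 animals (y axis, log2(CPM + 0.5)), for the 19 class I, B2m and loading genes and the 7 genes of class II, Cd74 and Ciita called above 1 CPM; points are genes and bars medians. The class I median is highest in animal 1 (0.30) and lowest in animal 2 (-0.28), and the class II median in animal 1 is 0.45.

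Markers of other cells moved with these animals in part. The summed level of 8 B cell markers was 26.3 CPM in animal 1 and 0.453 to 1.84 CPM in the other 3. None of the 8 was called in the edgeR test, 1 reached an unadjusted p under 0.05 and 0 were called by limma with voom weights, with Pax5 and Blk at 0. Ighm, for one, measured 9.74 CPM in animal 1 and 0 in the other 3. Lyz2, a macrophage gene that was not called, measured 5.73 CPM in animal 1 and 0.722 to 1.58 CPM elsewhere. The 8 macrophage markers summed to 57.8, 52.4, 84.0 and 63.7 CPM, with Itgam and Aif1 at 0. The 3 called were highest in animal 3, not in animal 1. Csf1r measured 33.16, 27.74, 39.4 and 37.72 CPM in animals 1 to 4. Cd68 measured 7.319, 10.82, 19.73 and 12.05 CPM, and Mertk 11.42, 12.01, 23.98 and 13.21 CPM.

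Of 8 dendritic cell markers only Zbtb46 was called, the 8 summed to 7.62 to 19.1 CPM, and Clec9a and Cd209a were at 0. Of 8 T and NK cell markers none was called by edgeR or by limma with voom weights and none reached an unadjusted p under 0.05, with a summed level of 0.234 to 1.39 CPM and Cd4, Cd8a, Nkg7 and Ncr1 at 0. Of 8 fibroblast markers 7 were called, and the 8 summed to 15022, 22281, 19670 and 14791 CPM, highest in animal 2. Dcn averaged 12889 CPM, Col3a1 2741, Col1a2 1141 and Col1a1 1040, beside 76 for Lum, 26.5 for Thy1 and 25.5 for Pdgfra. Pi16, at 1.55 CPM, was not called. Of 8 endothelial markers 3 were called by edgeR and 2 by limma with voom weights, at a sum of 388 to 424.5 CPM, with Cdh5 and Emcn at 0. Esam averaged 359 CPM, Kdr 49.25 and Tek 2.64, and Pecam1, at 0.940, was not called. Tek measured 1.57, 0.602, 0.579 and 7.8 CPM in animals 1 to 4, with an adjusted p of 0.0417 in the edgeR test. The part of other cells in the class II level and in the differences between animals was not tested.

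Genes that serve the same pathway and are not members were mostly present. All 10 genes of class I peptide supply and chaperones were called, from Nlrc5, the class I transactivator, at 13.7 ± 4.497 CPM (SD, n = 4) to the disulfide isomerase Pdia3 at 1911 ± 352 CPM. Nlrc5 measured 15.5, 8.44, 18.9 and 12.0 CPM, lowest in animal 2 like H2-D1, B2m and Tap1. The immunoproteasome subunits Psmb8, Psmb9 and Psmb10 averaged 182, 113 and 265 CPM. Psmb8 and Psmb9 were lowest in animal 2 and Psmb10 in animal 4. The chaperones Calr, Canx and Pdia3 were instead highest in animal 2, at 712, 788 and 2432 CPM, and the sum of the 10 genes was highest there (4194, 5097, 4548 and 3648 CPM in animals 1 to 4).

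Of 8 genes of endosomal processing for class II, 6 were called. Ctsb and Ctsl, both lysosomal cathepsins, averaged 1771 and 811 CPM. Ctss, the cathepsin that trims the invariant chain in professional antigen-presenting cells, had 2.93 counts over all 4 libraries, and March1, a ubiquitin ligase acting on class II, had 0.830. All 14 genes of MHC transcription and interferon gamma signalling were called by edgeR and 13 by limma with voom weights. Irf1 measured 204, 264, 254 and 107 CPM and was highest in animal 2, the animal with the lowest class I sum. Of 8 other genes with an MHC fold 5 were called, led by the neonatal Fc receptor Fcgrt at 347 ± 18.7 CPM.

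Promoters of members were read from RefSeq (build GRCm38.p6), 250 bases before to 50 after the start, for the 36 members that have an entry, 19 of them called. Enhancer A is the NF-kappa B site of class I promoters, and it is shown with its surroundings because 3 class I genes hold it unchanged while H2-Q10 does not. Capitals mark the enhancer A place, GGGGATTCCCC in the first 3 genes, and the Y box CTGATTGG on either strand. The stretches lie at chr17:35262913-35263052 (plus strand) for H2-D1, chr17:34000329-34000468 (minus) for H2-K1, chr17:35424667-35424806 (plus) for H2-Q6 and chr17:35469903-35470042 (plus) for H2-Q10. H2-K1 has more than one RefSeq start, and the first listed was used.
H2-D1: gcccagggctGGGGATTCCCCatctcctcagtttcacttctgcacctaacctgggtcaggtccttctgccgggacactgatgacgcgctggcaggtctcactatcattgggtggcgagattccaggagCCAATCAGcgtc
H2-K1: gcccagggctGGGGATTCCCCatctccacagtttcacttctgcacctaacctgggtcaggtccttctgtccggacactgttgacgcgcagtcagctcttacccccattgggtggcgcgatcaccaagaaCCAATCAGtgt
H2-Q6: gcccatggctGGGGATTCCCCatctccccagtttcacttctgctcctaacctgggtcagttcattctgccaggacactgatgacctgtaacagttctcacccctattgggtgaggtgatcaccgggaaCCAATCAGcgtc
H2-Q10: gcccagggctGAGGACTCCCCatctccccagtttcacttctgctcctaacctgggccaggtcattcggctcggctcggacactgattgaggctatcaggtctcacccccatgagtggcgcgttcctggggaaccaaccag

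The 11 bases of H2-D1, searched in all promoters on both strands, were in 10 of 32851 promoters (0.0304%), H2-D1, H2-K1 and H2-Q6 among them. They begin at offsets -171, -111 and -173 in these 3, the start base being offset 0. Counted from 1 at their 5′ end, the closest stretch of H2-Q10 carries G2A and T6C, that of H2-Q7 C11A, that of H2-Q4 C8T and that of H2-M3 G3A. The closest stretch differs at 3 bases in H2-T22 and at 4 in H2-T23, which averaged 176 and 483 CPM. A match describes letters only, and the levels of all these genes run from 24.8 CPM (H2-Q4) to 6562 CPM (H2-D1).

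Class II promoters are known for the X and Y boxes, bound by RFX and NF-Y. The Y box CTGATTGG was in 1346 of the promoters (4.1%), including H2-Aa and H2-Eb1 and 8 of the 19 called members in all. It was also in 10 of the 17 members with an entry that were not called, H2-Eb2 and H2-Oa among them. The X box core GNAACNGAT was in 675 promoters (2.05%), those of H2-DMb1 and H2-Eb1 among the called members and that of H2-Eb2 among the others. It starts at offset -91 in H2-Eb1 and -94 in H2-DMb1, with the Y box or its core ATTGG after it. The stretches of H2-Eb1 and H2-DMb1 show this spacing, with both patterns in capitals (ATTGG in H2-DMb1, where the longer Y box is absent), and in that of H2-Aa the Y box alone is in capitals. They lie at chr17:34287825-34287924 (minus strand), chr17:34305755-34305854 (plus) and chr17:34153080-34153179 (plus).
H2-Aa: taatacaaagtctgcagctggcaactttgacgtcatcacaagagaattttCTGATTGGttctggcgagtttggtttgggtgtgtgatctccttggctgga
H2-Eb1: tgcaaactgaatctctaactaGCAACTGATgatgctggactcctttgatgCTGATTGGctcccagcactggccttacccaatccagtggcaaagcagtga
H2-DMb1: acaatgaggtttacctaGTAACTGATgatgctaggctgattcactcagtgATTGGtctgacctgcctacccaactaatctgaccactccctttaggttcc

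ATTGG, which lies inside CTGATTGG, was in 37.4% of all promoters, in 15 of the 19 called members and in 15 of the 17 that were not called. The interferon response core GAAANNGAA was in 2812 promoters (8.56%), and among called members in those of B2m, Erap1, H2-T22 and H2-T23. In all 13 letter patterns were searched, several of them longer or looser forms of the same boxes, and the 5 described were chosen after matches were seen. H2-Ab1 has no entry in that set.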

How the data were processed

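RNA-seq libraries of sorted peritoneal mesothelial cells from 4 mice form 1 group, so no contrast between groups exists. The authors deposited 1 table of estimated counts per gene symbol. Tools named in the submitters' processing notes are kallisto 0.43.1, limma 3.38.3 and edgeR 3.24.3, beside the build GRCm38.p5; the annotation release, the step from transcripts to genes and strandedness are not given in the sources used here. The 4 columns match the 4 titles.

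Counts were rounded to whole numbers for tests, and CPM uses the unrounded values and column sums (depth 4090224 to 4569578 per library). The level of each of 48425 genes was tested against 1 CPM with edgeR 4.0.16 (R 4.3.3) as described, with no filter on low counts, and the script was tested on simulated data. The common biological coefficient of variation was 42.3%. Pairs of members were compared within animals on log2(CPM + 0.5), in CPM and per kilobase. The chi-square per gene between libraries ranged from 11.4 to 28.8, so all 4 were kept as separate replicates.

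Transcript lengths, 31-base words and exons came from GENCODE M21 on GRCm38, in which all 51 members matched by symbol. The longest transcript replaced the planned median after lengths were seen, because short incomplete transcripts set the median. Members with a mean of at least 10 CPM are given in every animal, the others by counts and range. Members, lists and pairs were chosen with earlier results of these data known, and H2-K2 and H2-Pa were placed in their groups after the file was read. Alternatives were TMM and DESeq2 1.42.0 scaling, a filter at 10 counts, limma 3.58.1 with voom weights, 5 CPM as the level, a pseudocount of 1 CPM and leaving out each animal.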

Additional observations from a re-analysis of the deposited data

Results flagged for a closer look

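Cd74 measured 1926 CPM in animal 1, and the gap to the nearest of the other 3 (1233 to 1294 CPM) was 0.913 of the whole range, above Dixon's critical value for 4 samples. Cd1d1 measured 27.9 CPM in animal 3, with a gap of 0.875 of its range to the other 3 (46.6 to 49.2 CPM). Chance alone marks about 1 in 20 such groups, and 29 groups of 4 values were looked at.

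H2-T-ps, a pseudogene outside the rule, had a mean of 4.94 CPM, with 8.46, 4.84, 2.32 and 4.14 CPM in animals 1 to 4 and an adjusted p of 4.17e-06 in the edgeR quasi-likelihood test. It shares 35.5% of its words with H2-T23 and has 51.6% of its own, and the part of H2-T23 reads in that level was not tested.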

How the results depend on the processing

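All 95 values of the main results under the alternatives were rated unchanged, by a rule that differed with the kind of result. The 10 pairs only had to keep their sign, which says nothing about the test, since none can pass it with 4 animals. The count of calls and the spread only had to stay near the main value, and the sums within their SD between animals. The count of members above 1 CPM was 30 with TMM, with DESeq2 size factors and with a filter at 10 counts, 29 with limma and voom weights, 27 against a level of 5 CPM, and 29 to 30 when 1 animal was left out. For single members 5 calls were lost: H2-Bl without animal 1, with voom weights and at 5 CPM, and Ciita (adjusted p = 1 in the edgeR test) and H2-T24 (0.91) at 5 CPM. Leaving out 1 animal moved the class II sum between 496 and 593 CPM, the classical sum between 8706 and 9923 CPM and the nonclassical sum between 1178 and 1356 CPM. The log2 difference of H2-D1 over H2-K1 then ranged from 1.16 to 1.38, and that of Tap1 over Tap2 from -0.50 to -0.07. For the sums the rule could not fail here, since leaving out 1 of 4 animals cannot move a mean beyond its SD. Per kilobase of the median transcript, the sizes of the pairs moved more (H2-D1 over H2-K1 2.51, Tap1 over Tap2 -3.06), since the annotated median length of H2-D1 is 406 bases and that of Tap2 378. No paired analysis was possible because there is only 1 group, so no samples of different groups share a replicate number; the pairs above are of genes within an animal. Depth limits a gene at 0 to no more than 0.171 CPM over the 4 libraries, and the levels of single class I paralogs are limited by shared sequence as well.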
